A study of Mus musculus with 5 samples.

Results

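The genes examined here were 9 markers of the surface and matrix of papillary thyroid cancer, namely Muc1, Sdc4, Met, Dpp4, Cldn1, Krt19, Lgals3, Fn1 and Timp1. They were chosen by symbol as known markers of this tumour, with earlier results of these data known. Each was found in the deposited table of 16413 mouse genes. RNA came from the thyroid of LSL-BrafV600E;TgCreERT2 mice. In these mice an oncogenic Braf allele stays silent until Cre, active only in the presence of tamoxifen and driven by the thyroglobulin promoter, removes a stop cassette in thyroid follicular cells. Every animal compared here was given tamoxifen for 1 week at 8 weeks of age and carried the mutation. Each value below therefore describes whole thyroid tissue of mutant mice, other cell types included. The groups differed in diet: 2 libraries came from mice on chow (replicates 2 and 8) and 3 from mice on a high fat diet (replicates 2, 9 and 10), eaten for 12 weeks from 10 to 22 weeks of age. Nothing in the labels ties each replicate number to its own animal, and the errors and p-values below therefore measure the spread between these samples, which may be technical.

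Papillary carcinoma is the thyroid tumour most often driven by mutant BRAF, through constant signalling of the MAPK pathway. Its cells keep an epithelial character while raising adhesion proteins, growth factor receptors and matrix proteins, and several of these serve as stains in the clinic: galectin-3, cytokeratin 19 and fibronectin among them. Most of the 9 act at the cell surface or outside the cell, and Krt19 is the exception as an intermediate filament protein. Fibronectin and TIMP-1 are also made by fibroblasts and macrophages, galectin-3 is abundant in macrophages, and MUC1 and KRT19 are also made by the epithelium of airways and glands.

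The sequence just upstream of the transcription start was read for the members whose promoters RefSeq lists in GRCm38.p6, the assembly known as mm10, which was the case for 7 of 9. The windows of Muc1, Sdc4 and Met are shown because Muc1 and Sdc4 had the smallest p of the 9 in the diet comparison and Met alone held a site for AP-1, a transcription factor downstream of MAPK signalling. Each runs 5′ to 3′ on the gene's own strand over the 250 bases that end at RefSeq's start site, which for Sdc4 and Met lies inside the longer GENCODE span given further on. Capitals mark matches, on either strand, to the AP-1 site TGANTCA, the ETS site CCGGAAG, the GC box GGGCGG or the TATA box TATAAA, and no matches overlapped in these windows. The Muc1 window is chr3:89228806-89229055 on the plus strand, that of Sdc4 is chr2:164443189-164443438 on the minus strand, and that of Met is chr6:17463707-17463956 on the plus strand.
Muc1: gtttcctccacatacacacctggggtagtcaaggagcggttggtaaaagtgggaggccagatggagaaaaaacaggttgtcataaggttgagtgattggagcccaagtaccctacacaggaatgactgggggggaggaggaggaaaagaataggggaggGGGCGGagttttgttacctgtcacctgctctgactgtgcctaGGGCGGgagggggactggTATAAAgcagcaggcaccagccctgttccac
Sdc4: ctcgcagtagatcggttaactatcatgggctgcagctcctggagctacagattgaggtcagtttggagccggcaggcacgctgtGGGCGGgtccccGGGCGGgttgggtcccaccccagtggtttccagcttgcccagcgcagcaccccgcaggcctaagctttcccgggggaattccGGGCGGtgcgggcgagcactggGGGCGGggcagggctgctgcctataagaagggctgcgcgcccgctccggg
Met: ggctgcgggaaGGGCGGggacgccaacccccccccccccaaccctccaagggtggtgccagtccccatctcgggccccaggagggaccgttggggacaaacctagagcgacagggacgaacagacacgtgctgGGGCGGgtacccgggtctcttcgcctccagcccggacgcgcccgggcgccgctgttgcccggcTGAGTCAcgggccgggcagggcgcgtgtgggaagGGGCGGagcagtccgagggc

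The Muc1 window held a TATA box that begins 31 bases before the start and GC boxes that begin 91 and 49 bases before it. Sdc4 held 4 GC boxes and no TATA box, and Met held 3 GC boxes and an AP-1 site that begins 54 bases before the start. Over the 7 members with an entry, a GC box stood in 6, a TATA box in 2 (Muc1 and Dpp4), an AP-1 site in 1 (Met) and an ETS site in 0. Among all 32851 mouse promoter windows of the same length, 32.7% held a GC box, 12.4% a TATA box, 6.75% an AP-1 site and 6.91% an ETS site. These matches describe the letters in the window and say nothing about binding.

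The libraries held 43494747 to 52663677 counts over genes, and thyroglobulin (Tg) alone took 10.9% to 22.1% of them. All 10 thyroid follicle markers listed for the check of the tissue were measured in every library. High fat diet replicate 10 stood apart from the other libraries: the airway mucin Muc5b was at 4638 CPM there (counts scaled to a common library size with TMM factors) and at 159 CPM or less elsewhere, and 6 of the 9 markers had their highest level in it. Each of the 9 markers and each list of related genes is therefore also given without that library. With edgeR's quasi-likelihood fit and Benjamini-Hochberg adjustment over 15765 genes, 0% of genes were called in either direction at an adjusted p under 0.05, and again 0% without high fat diet replicate 10. At an unadjusted p under 0.05 there were 855 genes, or 5.42%, the share to set beside each such count of a gene list below. DESeq2 called 93 genes, and limma-voom called 0.

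Per unit of transcript length, the markers spanned a wide range of expression. In FPKM as deposited, the median over the 5 libraries was 170.4 for Sdc4, 146.7 for Fn1, 71.0 for Krt19, 40.8 for Lgals3, 30.9 for Met, 30.9 for Timp1, 20.6 for Muc1, 13.1 for Dpp4 and 7.35 for Cldn1. Sdc4 and Fn1 led and overlapped each other, with ranges from 126 to 252 FPKM and from 106 to 324 FPKM. Krt19 lay below both and above every other marker without overlap, from 59.8 to 87.6 FPKM. Lgals3, Met and Timp1 overlapped one another, and Met and Timp1 overlapped Muc1 as well. Dpp4 overlapped Muc1, whose chow libraries lay at 13.9 and 13.4 FPKM, but not Cldn1, whose highest library was at 8.26 FPKM against 8.68 FPKM in the lowest Dpp4 library. FPKM carry no TMM factor, and on this scale the diets did not overlap for Muc1, Sdc4 and Met: Met was at 29.3 and 30.3 FPKM on chow and 32.4, 38.7 and 30.9 FPKM on the high fat diet. In CPM, used for every comparison that follows, Sdc4 and Met overlapped.

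**Figure D1:**
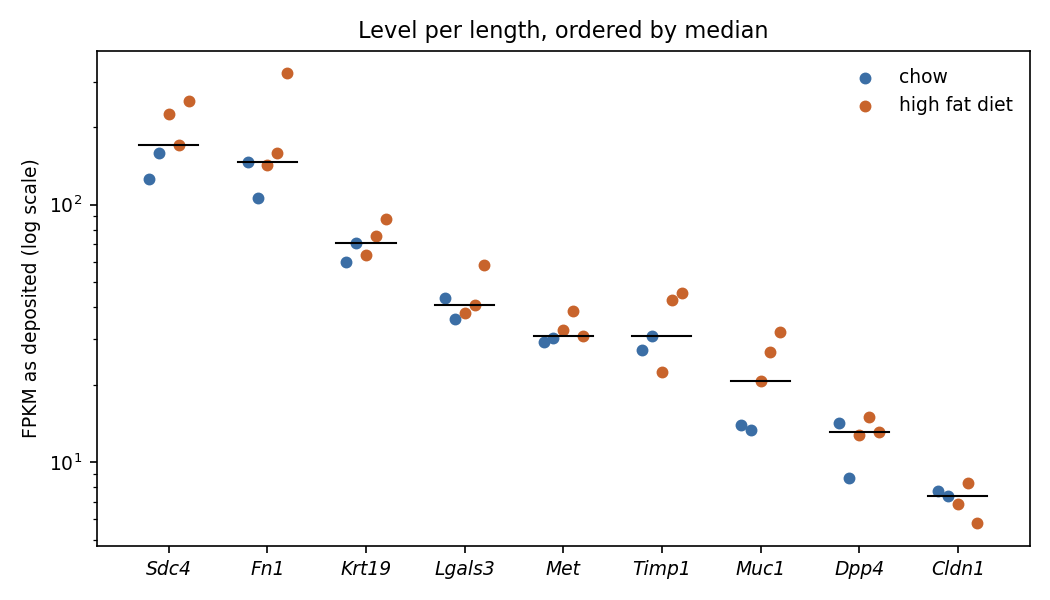
FPKM as deposited (log axis) of the 9 markers in the 5 libraries, ordered by their median (black line), with chow in blue and high fat diet in orange. Sdc4 and Fn1 lie at the top with medians of 170.4 and 146.7, Cldn1 lies at the bottom with 7.35, and the diets do not overlap on this scale for Muc1, Sdc4 and Met.

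The diet comparison asked whether these markers differ in thyroid tissue of mutant mice under nutrient excess. Of the 9 markers, 8 had a log2 fold change (high fat diet over chow) above 0 and Cldn1 lay below, with a median of 0.13 beside 0.012 over all genes tested. None passed in edgeR with an adjusted p under 0.05, where DESeq2 called 1 (Muc1) and limma-voom 0. At an unadjusted p under 0.05 there were 2 higher, Muc1 and Sdc4, and 0 lower, against a background of 2.95% of genes higher and 2.47% lower. In 1 marker, Muc1, the chow libraries were both exceeded by all high fat diet libraries, a share of the 9 close to the background of 10.6% of genes, and in 0 did they all lie below, against 10.3%. Without high fat diet replicate 10, Muc1 and Met had both remaining libraries above both chow libraries, 2 of 9 against a background of 17.7%, and 0 had both below, against 16.9%. At an unadjusted p under 0.05 there was then 1 higher, Muc1, and 0 lower, against 2.97% and 3.09% of genes. Above 0 lay 7 markers, with Lgals3 and Cldn1 below, and the median log2 fold change was then 0.19 beside 0.0076 over all genes.

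**Figure D2:**
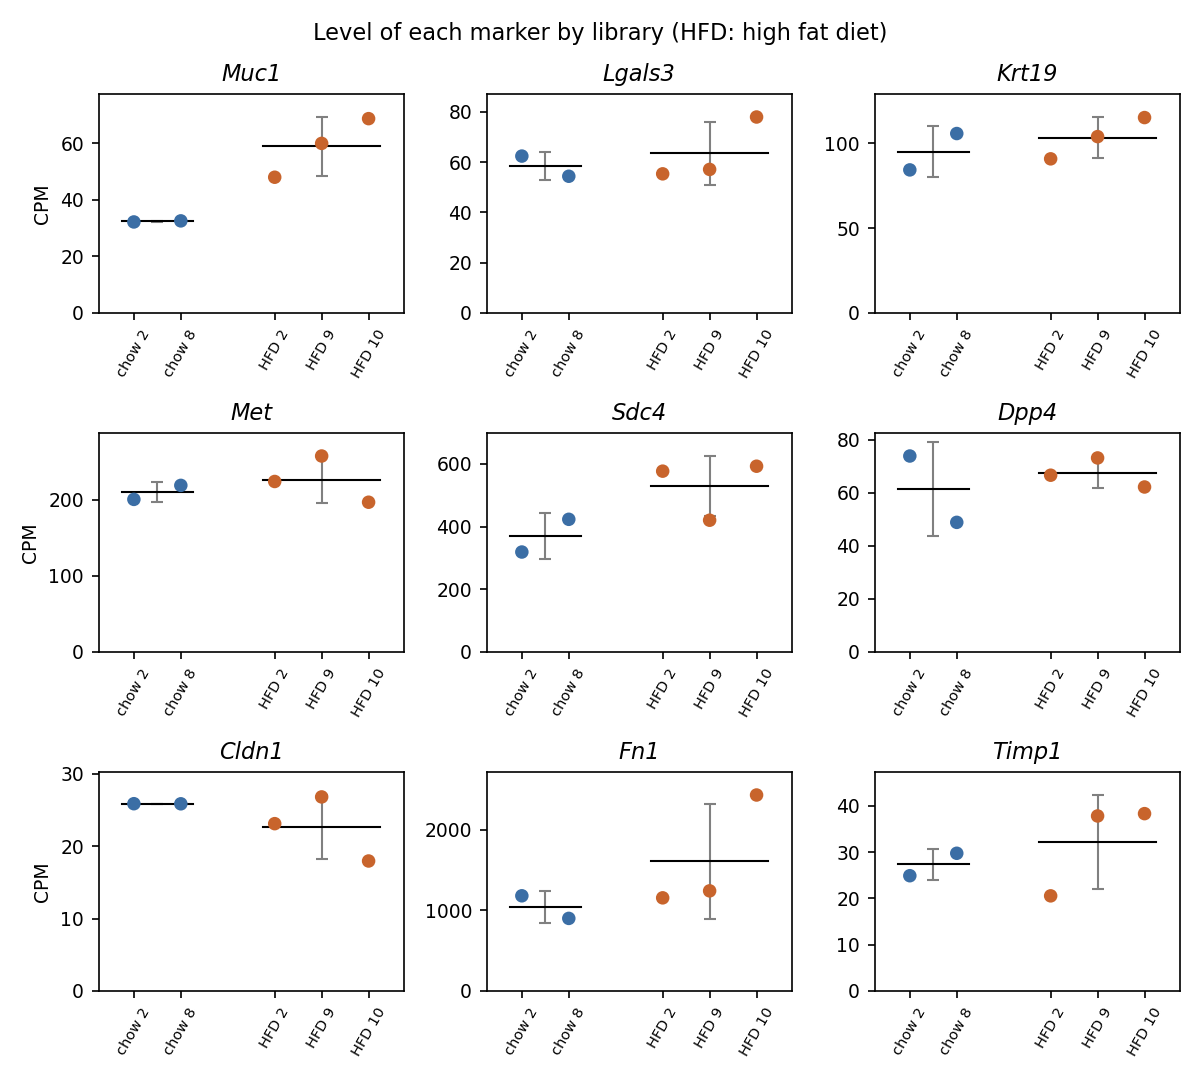
CPM of each marker in each library, on axes that start at 0, with chow in blue and high fat diet (HFD) in orange; black lines are group means and grey bars are 1 SD around them (n = 2 and n = 3). Muc1 runs from 48.0 to 68.7 CPM on the high fat diet against 32.2 and 32.5 CPM on chow, and in the other 8 markers the groups overlap.

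Muc1, a transmembrane mucin that coats the apical surface of epithelial cells and is raised over the whole surface in many carcinomas, showed the clearest difference. The gene (ID 17829) lies at chr3:89229057-89233381 of mm10, plus strand. Its level was 32.2 and 32.5 CPM in the chow libraries and 48.0, 59.9 and 68.7 CPM in high fat diet replicates 2, 9 and 10, which rest on 1389 and 1337 counts in the first group and 2483, 3010 and 3472 in the second. The chow libraries were nearly equal and every high fat diet library lay above them. The group means were 32.4 ± 0.268 CPM (SD, n = 2) and 58.9 ± 10.4 CPM (SD, n = 3), a ratio of 1.82. EdgeR put the log2 fold change at 0.86 (standard error 0.16, 95% interval from 0.51 to 1.22), and it ranked 26 among all genes by p, with an edgeR adjusted p of 0.256. In DESeq2 the adjusted p was 0.00089, and in the other 13 alternatives it ran from 0.0794 to 0.896. Without high fat diet replicate 10 the log2 fold change was 0.74 with an interval from 0.44 to 1.04 and an edgeR adjusted p of 0.239. The authors' deposited table lists Muc1 as 1.75-fold lower on chow with an adjusted p of 0.971.

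In whole tissue, fewer cells of a type and less RNA per cell cannot be told apart, and this holds for every marker here. All 13 airway epithelium markers were measured, and their summed level was 856 and 1052 CPM on chow and 1069, 1629 and 7049.9 CPM on the high fat diet, which puts the libraries in the same order as Muc1. Muc5b led the sum in high fat diet replicate 10, and in the 4 other libraries Bpifa1 was the most abundant of the 13, at 470.0 and 647 CPM on chow and 610.3, 942 and 1375 CPM on the high fat diet. Markers of other cells also parted by diet. Of 10 follicle markers, 3 lay below both chow libraries in every high fat diet library and 4 above, against 10.3% and 10.6% of genes. The lower were Tg, with a log2 fold change of -0.59 (-0.41 without high fat diet replicate 10), Tshr, with -0.50 (-0.41), and Pax8, with -0.44 (-0.39). The higher were the iodide transporter Slc5a5, with 1.36 (1.19), Slc26a4, with 0.78 (0.96), Foxe1, with 0.78 (0.59), and Nkx2-1, with 0.36 (0.21). Of 7 adipocyte markers, all measured, the summed level was 93.4 and 116 CPM on chow and 65.6, 67.5 and 42.3 CPM on the high fat diet. None of these genes passed in edgeR, whereas DESeq2 called Slc5a5 higher and the adipocyte genes Cfd and Cidec lower. The part of these cells in the Muc1 difference was not tested. Among other cell surface mucins, Muc4 was at 11.04 and 7.64 CPM on chow and 12.1, 9.94 and 19.4 CPM on the high fat diet, so its groups overlapped, with a log2 fold change of 0.56 (0.23 without high fat diet replicate 10). Muc20 had 1.32, but 18.9 CPM in high fat diet replicate 10 against at most 3.43 CPM elsewhere set that value, which was -0.99 without that library. Muc13, Muc15 and Muc16 were not analysed here.

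Sdc4 encodes syndecan-4, a heparan sulfate proteoglycan that binds fibronectin together with integrins and holds growth factors at the cell surface. The gene (ID 20971) lies at chr2:164424247-164443887, minus strand. Its level was 319 and 423 CPM on chow and 577, 420.0 and 592 CPM on the high fat diet. High fat diet replicates 2 and 10 lay above both chow libraries, whereas replicate 9 lay just under chow replicate 8. The means were 371 ± 73.8 CPM (SD, n = 2) and 529.6 ± 95.2 CPM (SD, n = 3). EdgeR put the log2 fold change at 0.51 (standard error 0.19, interval from 0.081 to 0.95) with an adjusted p of 0.856. It was 0.43 without high fat diet replicate 10, 0.32 without chow replicate 2 and 0.74 without chow replicate 8.

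The other syndecans were set beside it. Sdc1, the main syndecan of epithelia and plasma cells, was at 67.4 and 87.2 CPM on chow and 129.8, 142 and 163 CPM on the high fat diet, with every high fat diet library above both chow libraries. Sdc1 had a log2 fold change of 0.91 (standard error 0.15, edgeR adjusted p of 0.198), while DESeq2 called it, and it had 0.82 without high fat diet replicate 10. Sdc2, the syndecan of mesenchymal cells, was at 168 and 184 CPM on chow and 158, 159 and 149 CPM on the high fat diet, with every high fat diet library lower, a value of -0.18 that was not called (-0.15 without high fat diet replicate 10). Sdc3, best known from neurons, had a log2 fold change of 0.17 with overlapping groups, and 0.024 without that library.

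Met encodes the receptor tyrosine kinase for hepatocyte growth factor, which drives motility and growth. The gene (ID 17295) lies at chr6:17463800-17573980, plus strand. Its level was 201 and 219 CPM on chow and 224, 258 and 197 CPM in high fat diet replicates 2, 9 and 10. Among the 5 libraries replicate 10 was the lowest and replicate 9 the highest, so the groups overlapped. The log2 fold change was 0.11 with an interval from -0.19 to 0.41, and 0.20 with an interval from -0.043 to 0.44 without high fat diet replicate 10. Both intervals leave out a doubling, which is 1 on the log2 scale, and neither fit gave a call (edgeR adjusted p of 0.996 and 0.898).

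The ligand Hgf was low, at 5.86 and 3.31 CPM on chow and 3.999, 4.46 and 5.48 CPM on the high fat diet. Hgf's fold change was 0.019 on the log2 scale, and -0.12 without high fat diet replicate 10. Of the 10 genes of the hepatocyte growth factor pathway tested besides Met, 10 had a log2 fold change above 0, with a median of 0.22, and edgeR, DESeq2 and limma-voom each called 0, with 0 at an unadjusted p under 0.05. Without high fat diet replicate 10, 8 lay above 0 and 2 below, with a median of 0.11. The 4 of smallest p with all libraries were Mst1 (macrophage stimulating protein), with 1.22 at under 1 CPM in every library, Spint1, with 0.22, Hpn, with 0.65, and Spint2, with 0.33 (0.84, 0.18, 0.16 and 0.097 without that library). Hpn, a surface protease able to activate the growth factor, was at 29.8 CPM in high fat diet replicate 10 against 11.1 to 13.9 CPM elsewhere. Spint1 and Spint2 encode inhibitors of such proteases.

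Dpp4 encodes dipeptidyl peptidase 4, the surface protease that inactivates incretin hormones and marks fibroblasts and lymphocytes as well as thyroid tumours. The gene (ID 13482) lies at chr2:62330073-62412231, minus strand. Its level was 73.8 and 48.8 CPM on chow and 66.6, 73.1 and 62.1 CPM on the high fat diet. Both the highest and the lowest value belonged to chow, so the diet groups could not be separated. On the log2 scale the fold change was 0.13 with an interval from -0.27 to 0.54, and it was 0.19 without high fat diet replicate 10, -0.13 without chow replicate 8 and 0.46 without chow replicate 2. An antisense gene, Gm13561, shares 232 of the 6319 exonic bases of Dpp4, and reads of the pair cannot be told apart unless counting used strand. Among the 5 other genes of the family tested, 3 lay above 0 and 2 below, with a median of 0.11, and edgeR, DESeq2 and limma-voom called 0, with 0 at an unadjusted p under 0.05. Leaving out high fat diet replicate 10, the median was 0.014, again with 3 above 0 and 2 below. Dpp6 had 0.51 (0.18 without that library) at no more than 2.335 CPM, Dpp9 had 0.12 (-0.042) and Fap, the fibroblast activation protein, had 0.11 (0.014).

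Cldn1 encodes claudin-1, a sealing protein of tight junctions, and was the 1 marker with a lower mean on the high fat diet. The gene (ID 12737) lies at chr16:26356642-26371841, minus strand. Its level was 25.9 CPM in each chow library and 23.1, 26.8 and 18.0 CPM on the high fat diet. Here the lowest library was high fat diet replicate 10 and the highest replicate 9. Claudin-1 thus had a log2 fold change of -0.19 with an interval from -0.58 to 0.19 (edgeR adjusted p of 0.991), and -0.051 without high fat diet replicate 10.

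Of 11 other claudins tested, 6 lay above 0 and 5 below, with a median of 0.076. EdgeR, DESeq2 and limma-voom called 0, and 1 had an unadjusted p under 0.05 in edgeR, against 5.42% of all genes. Without high fat diet replicate 10, 7 lay above 0 and 4 below, with a median of 0.041. At an unadjusted p under 0.05 there were then 1 higher and 1 lower, against 2.97% and 3.09% of genes. The 1 with all libraries was Cldn10, a claudin that forms ion pores, at 23.5 and 23.5 CPM on chow and 13.4, 20.03 and 10.8 CPM on the high fat diet. For Cldn10 this gave -0.67 on the log2 scale (edgeR adjusted p of 0.856), and -0.49 without that library. Cldn2, which forms a pore for cations and water, went the other way at 44.3 and 64.6 CPM on chow and 84.7, 105 and 221 CPM on the high fat diet. Its high fat diet libraries all lay above chow, with a log2 fold change of 1.33 that was 0.80 without high fat diet replicate 10 (edgeR adjusted p of 0.926 with all libraries). Cldn3 had 0.62 (0.47 without that library) with overlapping groups, and Cldn23 had 1.10 (0.94) at under 1 CPM.

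**Figure D3:**
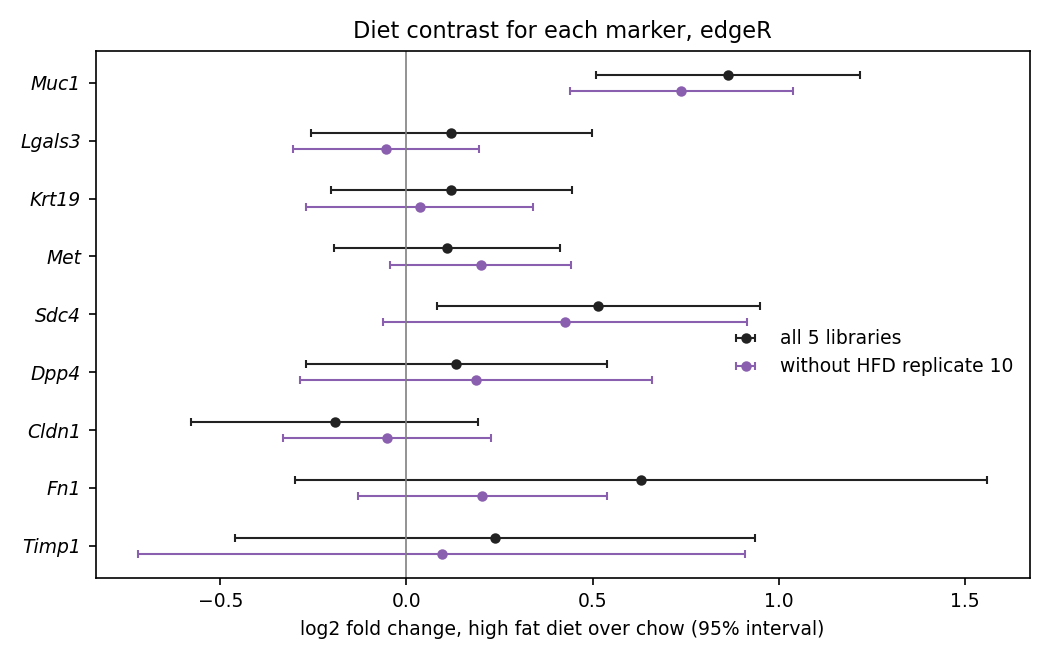
Log2 fold change of each marker (high fat diet over chow, edgeR) with its 95% interval, from all 5 libraries in black and without high fat diet (HFD) replicate 10 in purple. The interval lies above 0 in both fits for Muc1 (from 0.51 and from 0.44), above 0 in the first fit for Sdc4, and spans 0 in both for the other 7; Fn1 moves most, from 0.63 to 0.20.

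Krt19 encodes cytokeratin 19, the smallest keratin of simple epithelia. The gene (ID 16669) lies at chr11:100140810-100148665, minus strand. Its level was 84.2 and 106 CPM on chow and 90.8, 104 and 115 CPM on the high fat diet. High fat diet replicate 10 was highest and chow replicate 8 second, with the groups overlapping. The log2 fold change was 0.12 with an interval from -0.20 to 0.44 (edgeR adjusted p of 0.996). It was 0.035 without high fat diet replicate 10 and -0.039 without chow replicate 2. The other 4 simple epithelial keratins lay above 0, with a median of 0.32, and edgeR, DESeq2 and limma-voom called 0, with 0 at an unadjusted p under 0.05. Krt18 was at 272 and 303 CPM on chow and 317, 332 and 373 CPM on the high fat diet, with no overlap and a log2 fold change of 0.24. Its partner Krt8 had 0.33, Krt7 had 0.31 and Krt20 had 0.34, each with overlapping groups. With high fat diet replicate 10 left out, the 4 keratins still lay above 0, with a lower median of 0.20, and Krt18 had 0.17, Krt8 0.22, Krt7 0.15 and Krt20 0.47.

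Lgals3 encodes galectin-3, a lectin that binds galactose-bearing glycans inside and outside the cell. The gene (ID 16854) lies at chr14:47367751-47386160, plus strand. Its level was 62.4 and 54.4 CPM on chow and 55.3, 57.1 and 77.95 CPM on the high fat diet. High fat diet replicates 2 and 9 lay between the chow libraries, and replicate 10 lay above them. The log2 fold change was 0.12 with an interval from -0.26 to 0.50 (edgeR adjusted p of 0.996), and it was -0.055 without high fat diet replicate 10. All 10 macrophage markers were measured, led by Lyz2, Mrc1 and Csf1r, and their summed level was 1518 and 1169 CPM on chow and 1259.5, 1349.6 and 1767 CPM on the high fat diet, highest and lowest in the same libraries as Lgals3. The macrophage members were divided. Lyz2, Mrc1, C1qa, C1qb and Fcgr1 were highest in high fat diet replicate 10. Cd68, Adgre1, Csf1r and C1qc were highest in chow replicate 2, and Itgam in high fat diet replicate 9. The part of macrophages in the Lgals3 values was not tested. Of the 5 other galectin genes tested, which include the gene of the galectin-3 binding protein, 4 lay above 0, with a median of 0.20, and edgeR, DESeq2 and limma-voom called 0, with 0 at an unadjusted p under 0.05. Lgals3bp had 0.24, Lgals1 0.20 and Lgals9 0.37, and without high fat diet replicate 10 they had 0.026, 0.079 and 0.0089, and the median of the 5 was 0.068.

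Fn1 encodes fibronectin, the matrix glycoprotein that links integrins to collagen and fibrin. The gene (ID 14268) lies at chr1:71585520-71653200, minus strand, and by mean CPM it ranked 25 among all genes tested. Its level was 1179 and 899 CPM on chow and 1153, 1239.8 and 2428 CPM on the high fat diet, and the counts in the last library reached 122710. High fat diet replicate 10 stood at 2.03 times the mean of the other high fat diet libraries, of which replicate 2 lay between the chow libraries and replicate 9 above both. The means were 1039 ± 198 CPM (SD, n = 2) and 1607 ± 712 CPM (SD, n = 3). Fn1 had a log2 fold change of 0.63 with an interval from -0.30 to 1.56 (edgeR adjusted p of 0.966), and 0.20 with an interval from -0.13 to 0.54 without high fat diet replicate 10. An antisense gene annotated as Apol7d shares 292 of the 11685 exonic bases of Fn1.

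Values of cells that make fibronectin moved in part with these libraries. All 10 fibroblast markers were measured, led by Col3a1, Col1a2 and Col1a1, and their summed level was 5933 and 4748 CPM on chow and 3942, 5598 and 7376 CPM on the high fat diet. Of 9 cartilage markers, Col2a1, Col9a2, Matn1 and Matn3 were not measured. The other 5, led by Comp and Col9a1, summed to 119 and 122 CPM on chow and 146, 144 and 187 CPM on the high fat diet. Both sums were highest in high fat diet replicate 10, and their part in the Fn1 value was not tested. The fibroblast members were divided: Col3a1, Col1a2, Col1a1, Lum and Dpt were highest in that library. Pdgfra, Pdgfrb, Dcn, Pi16 and Thy1 were not, and Pdgfrb was lowest there. Of the 11 fibronectin receptors and matrix partners tested besides Fn1, 7 lay above 0 and 4 below, with a median of 0.050. EdgeR, DESeq2 and limma-voom called 0, and 2 had an unadjusted p under 0.05 in edgeR, against 5.42% of all genes. Leaving out high fat diet replicate 10, again 7 lay above 0 and 4 below, with a median of 0.058. At an unadjusted p under 0.05 there were then 1 higher and 2 lower, against 2.97% and 3.09% of genes. Thbs1, the matricellular protein thrombospondin-1, was at 424 and 412 CPM on chow and 519, 530.6 and 905 CPM on the high fat diet, with no overlap and a log2 fold change of 0.64 (0.33 without high fat diet replicate 10). Itgb6, the beta subunit of an integrin that activates TGF-beta, was at 76.6 and 64.5 CPM on chow and 51.2, 60.8 and 59.8 CPM on the high fat diet. For Itgb6 this gave -0.30 on the log2 scale (-0.33 without that library). Tnc, the matrix protein tenascin-C, had -0.27 (-0.35). The receptor subunits Itga5 and Itgb1 had 0.25 and 0.072 (0.16 and 0.10 without high fat diet replicate 10).

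Timp1 encodes an inhibitor of matrix metalloproteinases that also signals through the tetraspanin CD63. The gene (ID 21857) lies at chrX:20870166-20874735, plus strand and lies within Syn1 on the other strand, with 0 shared exonic bases, so unspliced Syn1 RNA could be counted there only if strand was not used. Its level was 24.9 and 29.8 CPM on chow and 20.6, 37.8 and 38.3 CPM on the high fat diet. On the high fat diet, replicates 9 and 10 lay above both chow libraries and replicate 2 below both. For Timp1 the log2 fold change was 0.24 with an interval from -0.46 to 0.94 (edgeR adjusted p of 0.996), and it ran from 0.095 without high fat diet replicate 10 to 0.48 without high fat diet replicate 2. Of the 8 other inhibitors and their partners tested, 6 lay above 0 and 2 below, with a median of 0.16, and edgeR, DESeq2 and limma-voom called 0, with 0 at an unadjusted p under 0.05. Without high fat diet replicate 10, 4 lay above 0 and 4 below, the median was 0.021, and 0 were called in edgeR. At an unadjusted p under 0.05 there were then 1 higher (Timp3) and 2 lower (Mmp3 and Mmp9), against 2.97% and 3.09% of genes. Timp3, which stays bound to the matrix, was at 1760.2 and 1717 CPM on chow and 2429.8, 2391 and 1587 CPM on the high fat diet, so that replicate 10 was the lowest library and replicates 2 and 9 the highest. Its log2 fold change was 0.30, and 0.47 without replicate 10 (edgeR adjusted p of 0.421). Timp2 had 0.17 (0.070 without that library) and the gelatinase Mmp2 0.19 (0.084), and the stromelysin Mmp3 had -0.34 (-0.53). The gelatinase Mmp9, named after its values were seen, was at 2.53 CPM in replicate 10 and at most 1.23 CPM elsewhere, and went from 0.16 to -1.39.

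**Figure D4:**
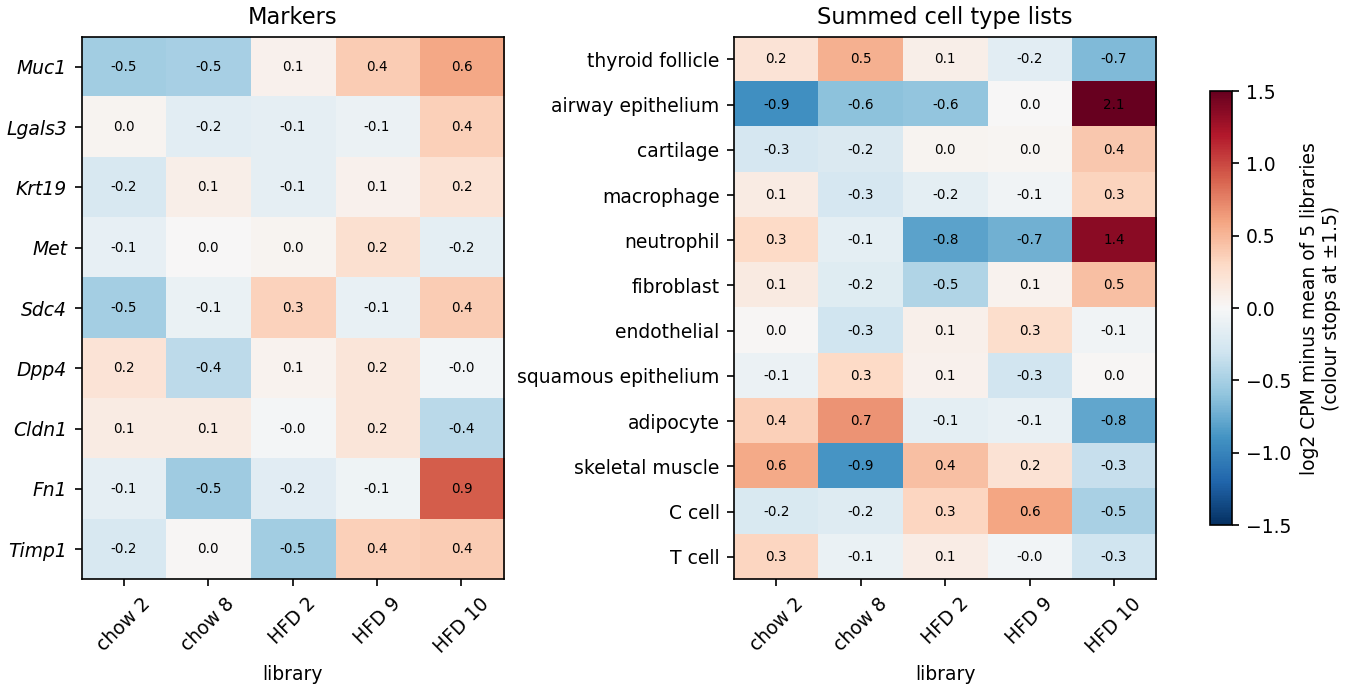
Log2 CPM minus the mean of the 5 libraries for each marker (left) and for the summed CPM of each cell type marker list (right), with HFD for high fat diet and colour that stops at 1.5 in either direction. High fat diet replicate 10 is highest for 6 markers, Fn1 most of all at 0.90, and for the airway, cartilage, macrophage, neutrophil and fibroblast sums, while Met and Cldn1 are lowest there.

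The markers did not vary as a block. Taking each gene's log2 CPM minus its mean over the 5 libraries, the pair with the most similar pattern was Met and Cldn1 (Euclidean distance 0.39), followed by Lgals3 and Krt19 (0.43), and the most dissimilar was Cldn1 and Fn1 (1.51). High fat diet replicate 10 held the highest value of Muc1, Lgals3, Krt19, Sdc4, Fn1 and Timp1 and the lowest of Met and Cldn1. The lowest values otherwise lay in chow replicate 2 (3 markers), chow replicate 8 (3) and high fat diet replicate 2 (1). Within the chow pair, Cldn1 differed least, by 0.00081 on the log2 scale, then Muc1, by 0.017, and Dpp4 most, by 0.60, and within the high fat diet libraries the span ran from 0.23 for Dpp4 to 1.07 for Fn1.

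By the same distance, the 3 genes nearest to Muc1 over the 5 libraries, among 9803 others with a mean of at least 10 CPM, were the homeobox gene Irx3 (0.12), Sec14l3 (0.22) and Has2, a hyaluronan synthase (0.22). Irx3 was at 14.1 and 15.2 CPM on chow and 22.3, 25.4 and 30.3 CPM on the high fat diet, in the library order of Muc1. The 3 nearest to Fn1 were the extracellular matrix protein gene Ecm1 (0.12), Gm4951 (0.13) and the drug transporter gene Abcb1a (0.22). Ecm1 was at 37.4 and 31.7 CPM on chow and 39.6, 41.1 and 79.9 CPM on the high fat diet, with high fat diet replicate 10 far above the rest as for Fn1. All 6 were picked for this likeness, which is therefore no separate result. None of these 6 passed in edgeR, with adjusted p-values from 0.311 to 0.966.

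Other genes known to be raised in papillary thyroid cancer were set beside the 9. This list too was chosen with earlier results of these data known, so its shares beside those of all genes are no independent test. Of 27 tested, 22 had a log2 fold change above 0 and 5 below, with a median of 0.20, where 52.7% of all genes lay above 0 and their median was 0.012. EdgeR, DESeq2 and limma-voom called 0 of them, and 3 had an unadjusted p under 0.05 in edgeR, against 5.42% of all genes. The membrane-binding annexins were 2 of these 3. Anxa2 was at 554 and 605 CPM on chow and 661, 759 and 920.4 CPM on the high fat diet, and Anxa1 at 808 and 732 CPM on chow and 964, 982 and 941 CPM on the high fat diet, each with every high fat diet library above chow. Their log2 fold changes were 0.43 and 0.32, and 0.29 and 0.34 without high fat diet replicate 10. The third was the adhesion molecule Icam1, with 0.32 (0.22 without that library), and the urokinase receptor Plaur had 0.51 (0.40) with overlapping groups. Groups without overlap were seen in 5 of the 27 on the higher side and 2 on the lower, against the backgrounds of 10.6% and 10.3%. When high fat diet replicate 10 was left out, 26 were tested, with 17 above 0, 9 below and a median of 0.16. At an unadjusted p under 0.05 there were then 3 higher and 0 lower, against 2.97% and 3.09% of genes. Groups did not overlap in 6 of the 26 on the higher side and 4 on the lower, against the backgrounds of 17.7% and 16.9%.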

How the data were processed

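Total RNA of the thyroid was made into stranded libraries, per the labels' protocols. The submitters' processing notes name HISAT2, StringTie, DESeq2 and mm10. The sources give no version or role for these tools, nor say if reads were counted by strand. Counts and FPKM per gene were deposited by the authors, with no count under 1 for any listed gene. Per the file headers, they also deposited normalized log2 values and, in their own comparison, a signed fold (chow over high fat diet, held as a score), p-values and adjusted p-values. The deposited columns spell the diet as HED and were matched to samples by diet and number. The 3 remaining count columns match none of the samples and were left out of every step.

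The deposited counts were fitted with edgeR 4.0.16 in R 4.3.3 (TMM factors, filterByExpr, robust quasi-likelihood) on diet alone, after tests on simulated data. The filter removed 648 genes and left 15765, all 9 markers among them. Standard errors and 95% intervals come from that fit. Alternatives were RLE and upper-quartile factors, library totals alone, no filter, a stricter filter (1 CPM throughout a group), limma-voom (limma 3.58.1), DESeq2 1.42.0, no robust shrinkage and leaving out each library. A limma fit on the deposited normalized values was added after seeing the data. Members and gene lists were chosen with earlier results of these data known. From each gene list all measured members were counted and up to 4 of smallest p named. From each cell type list up to 3 of highest CPM could be named, and for Muc1 and Fn1 the 3 genes of nearest pattern. Hgf, Itga5, Itgb1, Mmp9, Tshr, Pax8, Slc5a5, Slc26a4, Foxe1, Nkx2-1, Cfd and Cidec were named beyond this rule, after their values were seen. So were the fibroblast markers Pdgfra, Pdgfrb, Dcn, Lum, Pi16, Dpt and Thy1. The macrophage markers Cd68, Adgre1, C1qa, C1qb, C1qc, Fcgr1 and Itgam were named in the same way. Gene positions come from GENCODE vM21 of mm10.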

Additional observations from a re-analysis of the deposited data

How the results depend on the processing

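Of the 14 alternatives, 13 left the count of called markers at 0, and DESeq2 gave 1, Muc1, with a log2 fold change of 0.86. Over all genes DESeq2 called 93 (47 higher and 46 lower), and leaving out 1 library gave 0 to 5 calls in edgeR, the 5 without chow replicate 8. The cause of these differences was not tested. Leaving out 1 library, the log2 fold change ran from 0.74 to 0.99 for Muc1, from 0.32 to 0.74 for Sdc4, from 0.20 to 0.83 for Fn1, from 0.095 to 0.48 for Timp1, from 0.0048 to 0.20 for Met and from -0.33 to -0.051 for Cldn1. It changed sign for Lgals3 (-0.055 to 0.22), Krt19 (-0.039 to 0.30) and Dpp4 (-0.13 to 0.46), each of which had 1 reversal, and for the 6 other markers the direction held in all 14. With library totals alone the median of all genes was 0.097 and Muc1 had 0.96. No paired analysis was possible because the diets share only the replicate number 2. The diets were compared on 2 and 3 libraries alone, and the width of the intervals differed between markers. That of Fn1 spanned -0.30 to 1.56 with all libraries, and -0.13 to 0.54 without high fat diet replicate 10. That of Met spanned -0.19 to 0.41 with all libraries. Every marker had at least 908 counts in each library.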
